A study of Mus musculus with 4 samples.

Results

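The integrated stress response and the unfolded protein response were examined through 31 genes in cultured muscle stem cells (MuSC) with and without Prmt5. The genes were listed by name: 17 are linked to the transcription factor Atf4 and to amino acid supply (the Atf4 arm), and 14 belong to the stress machinery of the endoplasmic reticulum (the ER arm). All 31 were found among the 20065 genes of the deposited table, and all 31 were among the 16212 genes that passed a minimum mean of 5 normalized counts. The study asked what Prmt5, an arginine methyltransferase, does in adult MuSC, the satellite cells that regenerate skeletal muscle. RNA came from satellite cells of adult C57BL/6 mice, purified from limb and trunk muscles by flow cytometry (CD11b-, CD45-, CD31-, CXCR4+, CD34+) and then cultured. Control cells were Pax7CreERT2/Prmt5+/loxP and are labelled wild type, although they carry a single floxed Prmt5 allele. Mutant cells (Prmt5sKO) were Pax7CreERT2/Prmt5loxP/loxP. Both groups carried the tamoxifen-inducible Cre, driven from the Pax7 locus, and 4-hydroxytamoxifen was added to the cultured cells of both groups some days before RNA was taken. Each group had 2 libraries, told apart here only as the deeper and the shallower library, because the table gives group means without replicate numbers. Whether the libraries of a group came from separate animals or cultures is not stated, so the p-values measure only the spread between these libraries.

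Cells under amino acid shortage, ER stress or other insults phosphorylate the initiation factor eIF2. General translation then slows, while translation of Atf4 mRNA increases, and Atf4 protein activates genes for amino acid synthesis and uptake. Unfolded protein in the ER is sensed by Perk (Eif2ak3), Ire1 (Ern1) and Atf6, of which Perk is an eIF2 kinase and so joins the pathways. Ire1 splices Xbp1 mRNA, and Xbp1 and Atf6 proteins drive chaperone and degradation genes. Much of this control acts on phosphorylation, translation, splicing and protein cleavage, which counts of reads per gene do not measure.

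Promoters of the members were searched for the DNA elements through which these factors act, and those of some members held them. RefSeq promoter windows (GRCm38.p6, 250 bases before to 50 after the start site) were matched by symbol for 29 of the 31 members. On either strand, the ER stress response element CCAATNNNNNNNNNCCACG was found for 5 of 13 ER-arm genes with a window, all of them among the 7 chaperone and folding genes, and for 0 of 16 Atf4-arm genes. The share over all 32851 windows was 0.119%. This share is per window, whereas a gene counted as matched when any of its windows matched, and the comparison was not tested. Windows of 49 bases around the element are given 5′ to 3′ on the gene's strand, with the element in capitals (in Calr it lies on the opposite strand).
Hspa5: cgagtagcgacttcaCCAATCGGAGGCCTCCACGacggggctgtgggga
Hsp90b1: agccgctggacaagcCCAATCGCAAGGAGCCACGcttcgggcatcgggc
Pdia6: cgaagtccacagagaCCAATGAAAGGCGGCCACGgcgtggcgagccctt
Calr: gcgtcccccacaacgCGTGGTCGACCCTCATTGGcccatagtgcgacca
Canx: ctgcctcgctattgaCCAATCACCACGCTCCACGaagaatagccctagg
These windows lie at chr2:34772010-34772058 (Hspa5, plus strand), chr10:86705623-86705671 (Hsp90b1, minus strand), chr12:17266476-17266524 (Pdia6, plus strand), chr8:84847060-84847108 (Calr, minus strand) and chr11:50325785-50325833 (Canx, minus strand). Hsp90b1 held a second match, 107 bases before its start site.

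The C/EBP-ATF response element TGATGNAA, which binds Atf4 with a C/EBP partner, was found for 6 of 16 Atf4-arm genes with a window (Atf3, Nupr1, Trib3, Chac1, Asns and Slc7a11) and for 1 of 13 ER-arm genes (Herpud1). The share over all windows was 3.97%, again per window and not per gene. The windows of 38 bases are written in the same way. Slc7a11 held a second match, 47 bases before its start site and on the opposite strand. The match in Trib3 lies after its start site and is not shown. In the windows of Atf3, Nupr1, Chac1 and Herpud1 the element lies on the opposite strand and therefore reads TTGCATCA.
Atf3: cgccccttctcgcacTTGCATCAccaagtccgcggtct
Nupr1: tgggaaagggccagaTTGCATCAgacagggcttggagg
Chac1: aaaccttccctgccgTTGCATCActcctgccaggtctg
Asns: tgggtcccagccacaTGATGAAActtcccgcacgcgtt
Slc7a11: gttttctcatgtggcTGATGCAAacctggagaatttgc
Herpud1: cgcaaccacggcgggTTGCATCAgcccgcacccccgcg
They lie at chr1:191183421-191183458 (Atf3, minus strand), chr7:126625558-126625595 (Nupr1, minus strand), chr2:119351034-119351071 (Chac1, plus strand), chr6:7693210-7693247 (Asns, minus strand), chr3:50443657-50443694 (Slc7a11, minus strand) and chr8:94386302-94386339 (Herpud1, plus strand). Herpud1 alone among the members also held the short ER stress response element ATTGGNCCACG (0.0365% of all windows), and no member held TGACGTGG, the unfolded protein response element (0.676% of all windows). Matches of different elements did not overlap. A match is a string of letters in the reference, and no match says only that the letters are not in this window. Binding was not measured.

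In the Atf4 arm, all 9 enzymes and transporters had a lower estimate in Prmt5sKO, of which Psph, Mthfd2 and Slc7a11 turned positive without the shallower control library. Of the 9, 6 (Phgdh, Psat1, Shmt2, Asns, Slc3a2 and Slc7a5) had both mutant libraries below both control libraries. For the 8 transcription factors and feedback genes of the same arm the median was 0.01 on the log2 scale. Of these 8, 7 overlapped between groups, as did 51.2% of all genes tested. The difference between these parts of the arm was not tested. In the ER arm 6 of 14 genes (Eif2ak3, Atf6, Xbp1, Dnajb9, Canx and Sel1l) had both mutant libraries above both controls, and 2 of 14 (Hsp90b1 and Edem1) had them below. No member passed the test, whose threshold was a fold change of 2 with an adjusted p of 0.05. The lowest adjusted p among the members was 0.248 (Psat1, limma-voom with Benjamini-Hochberg adjustment over all genes tested).

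These counts are read against all genes. Of the 16212 genes tested, 0% were called, and the smallest adjusted p of any gene was 0.193, that of Prmt5 itself. The absence of calls among the members therefore says little about them. Control libraries gave 2273 and 2906 normalized counts of Prmt5, and mutant libraries gave 244 and 202. In every such pair of values the deeper library comes first. Normalized counts here are counts recovered per library and scaled by TMM (trimmed mean of M values) to a common library size. An unadjusted p under 0.05 was reached by 2101 genes, 6.01% of all tested with higher values in Prmt5sKO and 6.95% with lower values. Both mutant libraries lay above both controls for 25.2% of genes and below both for 23.6%. Total counts ranged from 13240754 to 20047430 per library.

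The libraries also differed in markers of differentiation and proliferation. The summed level of 20 muscle differentiation markers was 86619 and 129604 normalized counts in the controls. In Prmt5sKO it was 88866 in the deeper library and 512908 in the shallower one, which stands apart in this sum. By gene, 15 of the 20 markers had both mutant libraries above both controls and 0 had them below. These 15 are 75%, against 25.2% of all genes tested. Ttn, Chrna1 and Myh3 had the most counts of that list. The sum of 8 proliferation markers, led by Mki67, Top2a and Mcm5, was 34978 and 40241 in the controls against 18982 and 17484 in Prmt5sKO, with 7 of 8 lower in both mutant libraries. Myoblast markers were present in all 4 libraries: Myod1 lay between 12153 and 15548, and the sum of 7 listed satellite cell markers, led by Myod1, Itga7 and Sdc4, between 31879 and 44426. Msc was not listed. Immune markers summed to at most 173 normalized counts (led by Cd68, Cd14 and Csf1r, with Ptprc and Adgre1 not listed) and endothelial markers to at most 163 (led by Kdr, Pecam1 and Tek, with Emcn not listed). Fibroblast markers summed to between 6050 and 16748, nearly all of it Col3a1, with Col1a1 and Dcn next. The part of differentiation and proliferation in the results on the members was not tested. Fewer cells of a type and less RNA per cell cannot be told apart in these bulk samples.

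Atf4, the central transcription factor of the response (ENSMUSG00000042406, chr15:80255184-80257541, plus strand), gave 4489 (deeper) and 7629.5 (shallower) normalized counts in the controls, and 4372 (deeper) and 5036 (shallower) in Prmt5sKO. The mutant libraries were close to the lower control, and the groups overlapped. The log2 fold change, Prmt5sKO over control, was -0.32 (SE 0.30, 95% interval -1.05 to 0.41, adjusted p = 0.659). Without the shallower control library the estimate was 0.07, so its direction rested on that library.

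Ddit3 (Chop), a factor tied to death under prolonged stress, gave 108 and 180.3 normalized counts in the controls and 148 and 129 in Prmt5sKO. Both mutant values fell inside the control range, with a log2 fold change of 0.01 (95% interval -0.95 to 0.97), and 10.9% of its exon bases are shared with other annotated genes. Atf3, an early stress-inducible factor, was the least counted member, with 17 to 48 recovered counts per library. Its normalized counts were 19.2 and 31.1 in the controls and 30.4 and 48.3 in Prmt5sKO. Cebpb, a partner of Atf4 on its response element, gave 83.6 and 121 in the controls and 54.8 and 121 in Prmt5sKO, so that its mutant libraries spanned the control range. Of its exon bases, 20.7% are shared with Tmem189 on the other strand. Nupr1, a small stress-induced chromatin protein, gave 171 and 92.1 in the controls and 179 and 237 in Prmt5sKO. It was the only Atf4-arm gene with both mutant libraries above both controls, by a narrow margin to the deeper control (log2 fold change 0.67, SE 0.42, adjusted p = 0.516). Its estimate was 0.26 when the shallower control was left out and 1.128 when the deeper control was.

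The genes that act on the response itself overlapped between groups. Ppp1r15a (Gadd34) directs a phosphatase to eIF2 and ends the response, and gave 703 and 322 normalized counts in the controls and 602 and 1091 in Prmt5sKO. Trib3, a pseudokinase that restrains Atf4, gave 162 and 338 in the controls and 164 and 93.5 in Prmt5sKO. Chac1, which degrades glutathione, gave 223 and 433 in the controls and 302 and 319.8 in Prmt5sKO. The shallower control was the highest library for Trib3 and Chac1 and the lowest for Ppp1r15a. The log2 fold changes were 0.73 for Ppp1r15a, -0.84 for Trib3 and 0.02 for Chac1, with adjusted p values of 0.517, 0.498 and 0.988. Leaving out a library in turn gave 0.20 (without the shallower control) to 1.306 (without the deeper control) for Ppp1r15a and -0.34 to -1.42 for Trib3, without the same libraries.

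**Figure D1:**
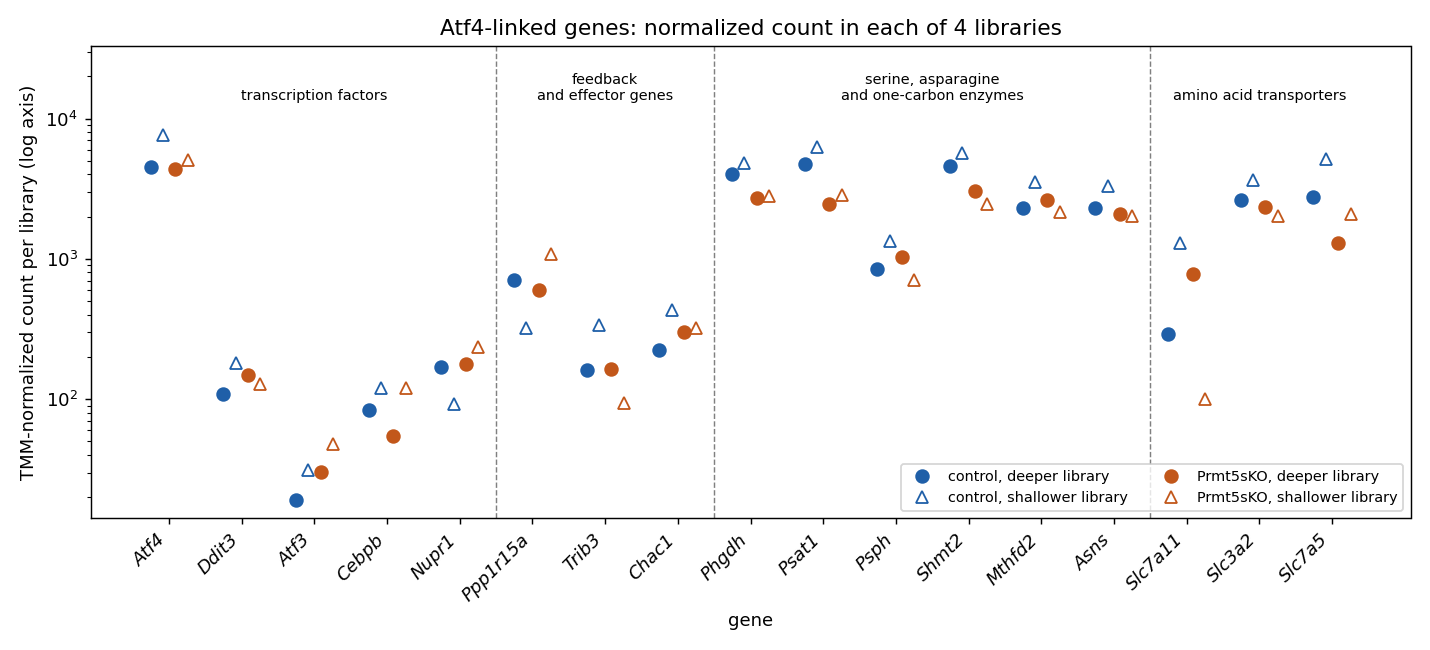
TMM-normalized count (log axis) of the 17 Atf4-arm genes in each of the 4 libraries, grouped by role; blue marks control, orange Prmt5sKO, filled circles the deeper and open triangles the shallower library of a group. Phgdh, Psat1, Shmt2, Asns, Slc3a2 and Slc7a5 have both orange points below both blue ones, while Slc7a11 runs from 99.6 to 1293 with the groups interleaved.

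The serine pathway starts with Phgdh, which draws 3-phosphoglycerate out of glycolysis (chr3:98313170-98339990, minus strand). Phgdh gave 4045 and 4822 normalized counts in the controls and 2735 and 2820.0 in Prmt5sKO. The mutant libraries lay close together and below both controls, with a log2 fold change of -0.67 (SE 0.21, 95% interval -1.17 to -0.17, adjusted p = 0.305). Psat1, the transaminase of the next step (chr19:15904678-15947337, minus strand), gave 4709 and 6260.0 in the controls and 2472 and 2837 in Prmt5sKO. Its log2 fold change of -1.04 (SE 0.23, 95% interval -1.60 to -0.47) corresponds to 2.05-fold lower levels. Psph, the phosphatase of the last step, did not share this separation. It gave 852 and 1334 in the controls and 1039.5 and 706 in Prmt5sKO, with a log2 fold change of -0.30 (95% interval -1.07 to 0.47). Of its exon bases, 10.4% are shared with Cct6a on the other strand.

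The mitochondrial one-carbon enzymes also differed from each other. Shmt2 splits serine into glycine and a one-carbon unit (chr10:127517123-127522444, minus strand), and gave 4628 and 5706 normalized counts in the controls and 3043 and 2474 in Prmt5sKO. Both mutant libraries lay below both controls (log2 fold change -0.91, SE 0.23, 95% interval -1.46 to -0.35, adjusted p = 0.262). Mthfd2, which oxidizes the one-carbon unit on folate, gave 2297 and 3515 in the controls and 2646 and 2163 in Prmt5sKO. These groups overlapped, with a log2 fold change of -0.25 (95% interval -0.91 to 0.42). Asns, which makes asparagine from aspartate and holds a C/EBP-ATF element 23 bases before its start site, gave 2291 and 3326 in the controls and 2074 and 2026 in Prmt5sKO. Both mutant libraries lay below the deeper control by a small margin and far below the shallower one (log2 fold change -0.43, SE 0.25, adjusted p = 0.484).

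Among the transporters, Slc7a5 (Lat1, chr8:121881150-121907694, minus strand) imports large neutral amino acids such as leucine. It gave 2755 and 5154 normalized counts in the controls and 1298 and 2079 in Prmt5sKO. It had the lowest log2 fold change of the 31 members, -1.20 (SE 0.38, 95% interval -2.12 to -0.28, adjusted p = 0.311), or 2.30-fold lower. Slc3a2 (4F2hc), the heavy chain that Slc7a5 and Slc7a11 both need at the membrane, gave 2607 and 3623 in the controls and 2343 and 2006 in Prmt5sKO, with a log2 fold change of -0.50 (SE 0.24, adjusted p = 0.425). Slc7a11 (xCT, chr3:49892526-50443614, minus strand), the cystine importer, gave 292 and 1293 in the controls and 780.2 and 99.6 in Prmt5sKO. The libraries of the same genotype differed more than the genotypes did, and its interval, -3.56 to 1.62, was the widest of the members. Psat1, Shmt2, Phgdh and Slc7a5 had an unadjusted p under 0.05, and 0 of the 17 Atf4-arm genes did so with higher values in Prmt5sKO.

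The sensors of the ER arm had mostly higher values in Prmt5sKO. Atf6, the sensor that is cleaved into a transcription factor (ENSMUSG00000026663, chr1:170704674-170867771, minus strand), gave 2082 and 2224 normalized counts in the controls and 3158 and 3831 in Prmt5sKO. The control libraries nearly coincided and both mutant libraries lay above them (log2 fold change 0.69, SE 0.21, 95% interval 0.18 to 1.20, adjusted p = 0.30). Eif2ak3 (Perk) gave 362 and 243 in the controls and 569 and 381 in Prmt5sKO. The gap between the deeper control and the shallower mutant library was small (log2 fold change 0.66, SE 0.34, adjusted p = 0.456), and 8.05% of its exon bases are shared with a gene on the other strand. Xbp1 gave 1169.6 and 1002 in the controls and 1396 and 1557 in Prmt5sKO, again without overlap (log2 fold change 0.44, SE 0.21, adjusted p = 0.422). Spliced and unspliced Xbp1 are not separated in these counts. Ern1 (Ire1) departed from the other sensors, with 796 and 1199.6 in the controls and 1312 and 595 in Prmt5sKO. The mutant libraries were the highest and the lowest of the 4, and the log2 fold change was -0.12 (95% interval -1.15 to 0.91).

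In Hspa5, Calr, Pdia4 and Pdia6 the groups overlapped. Hspa5 (BiP), the Hsp70 of the ER lumen (ENSMUSG00000026864, chr2:34771970-34777547, plus strand), gave 11666 and 10094 normalized counts in the controls and 13027 and 10039 in Prmt5sKO. The mutant libraries enclosed the control values, and the 95% interval of the log2 fold change, -0.50 to 0.64, contained 0. Calr, the soluble lectin chaperone, gave 13275 and 10706 in the controls and 11765 and 11263 in Prmt5sKO (log2 fold change -0.05, 95% interval -0.59 to 0.49). Pdia4, a disulfide isomerase, gave 4059 and 3109.9 in the controls and 3496 and 3608 in Prmt5sKO, with an interval from -0.54 to 0.54. Pdia6, another disulfide isomerase, gave 6893 and 5446 in the controls and 3971 and 5822 in Prmt5sKO. Its log2 fold change was -0.35 (95% interval -1.0 to 0.31).

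Canx and Hsp90b1 separated by small amounts in opposite directions. Canx, the membrane-bound partner of Calr, gave 12050.0 and 12434 normalized counts in the controls and 13759.6 and 13296 in Prmt5sKO, with a log2 fold change of 0.14 (95% interval -0.35 to 0.64). Hsp90b1 (Grp94) gave 9141 and 8354 in the controls and 7324 and 7967 in Prmt5sKO, with a log2 fold change of -0.19 (95% interval -0.69 to 0.30). Other annotated genes share 15.7% of the exon bases of Hsp90b1. The 5 chaperone genes printed above with an ER stress response element therefore had estimates on both sides of 0, between -0.35 (Pdia6) and 0.14 (Canx).

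Dnajb9 (ERdj4), a J-domain co-chaperone of Hspa5 and a known target of Xbp1 (chr12:44205559-44210326, minus strand), differed from the other folding genes. It gave 191 and 110.2 normalized counts in the controls and 656 and 279 in Prmt5sKO. Both mutant libraries lay above both controls but differed from each other, with a log2 ratio of the shallower to the deeper one of -1.23. The log2 fold change of 1.58, or 2.98-fold, had an SE of 0.58 and a 95% interval from 0.15 to 3.0 (adjusted p = 0.352). Without the deeper Prmt5sKO library the estimate was 0.92, and without the shallower one 2.15. Dnajb9 and Atf6 were the 2 ER-arm genes with an unadjusted p under 0.05.

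The degradation genes did not share a direction. Sel1l, the scaffold of the Hrd1 ubiquitin ligase (chr12:91806043-91849157, minus strand), gave 1540.3 and 1469 normalized counts in the controls and 1946 and 1963 in Prmt5sKO. Replicates agreed closely in both groups, 1505 ± 50.2 against 1954 ± 12.4 (mean ± SD, n = 2 each), and the log2 fold change was 0.38 (SE 0.19, adjusted p = 0.447). Herpud1, which gathers the ligase complex and holds both an ER stress and a C/EBP-ATF element, gave 582 and 814 in the controls and 793 and 1426 in Prmt5sKO. These groups overlapped (log2 fold change 0.62, 95% interval -0.24 to 1.49), and the estimate was 0.21 when the shallower Prmt5sKO library was left out and 1.06 when the deeper one was. Edem1, which leads misfolded glycoproteins to degradation, gave 688 and 861 in the controls and 525 and 545 in Prmt5sKO. It was the ER-arm gene with the lowest estimate (log2 fold change -0.52, SE 0.23, adjusted p = 0.401).

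**Figure D2:**
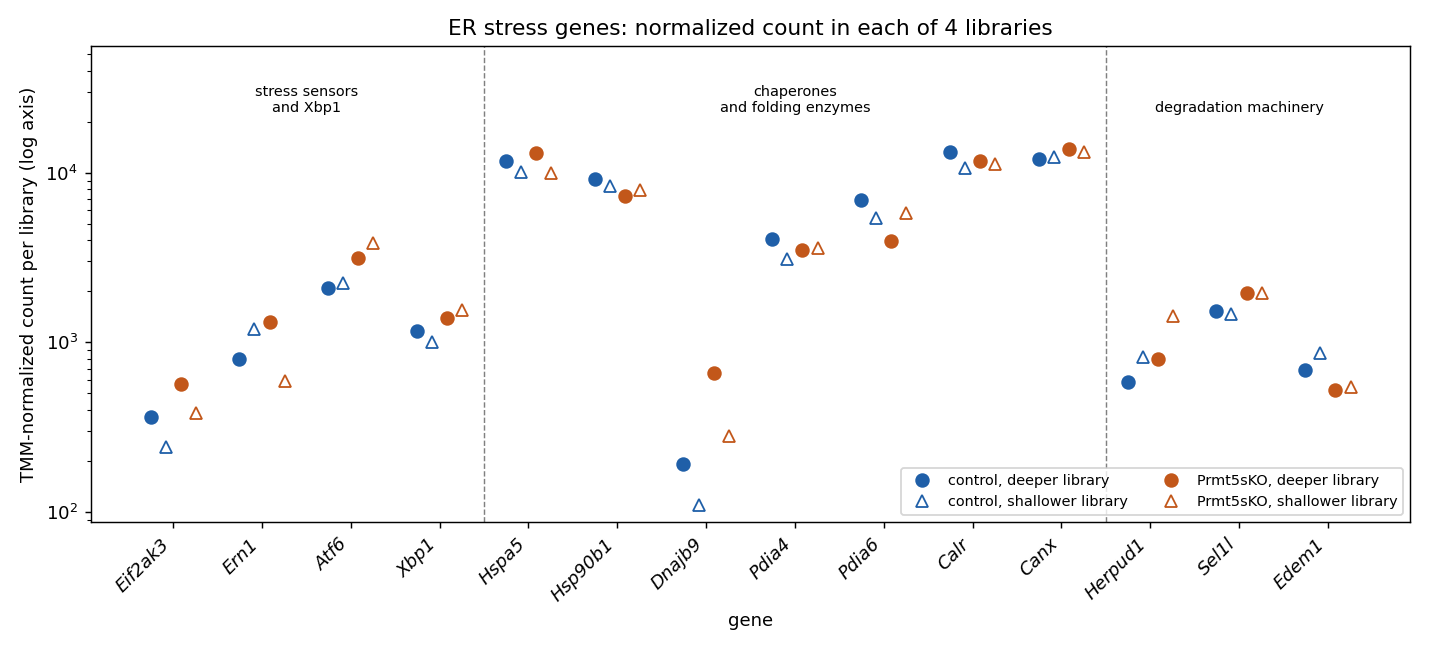
TMM-normalized count (log axis) of the 14 ER-arm genes in each of the 4 libraries, grouped by role; colours and symbols as for the Atf4 arm. Atf6, Xbp1, Eif2ak3, Dnajb9, Sel1l and Canx have both orange points above both blue ones, and the abundant chaperones Hspa5 and Calr have orange points within or around the control range.

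Set side by side with all 4 libraries, the arms leaned to opposite sides. Without the shallower control library, the median log2 fold change of the Atf4 arm was 0.02. In the Atf4 arm, 35.3% of the 17 genes had both mutant libraries below both controls and 5.88% had them above. In the ER arm, 14.3% of the 14 genes had them below and 42.9% above. The background shares were 23.6% below and 25.2% above, and over all 31 members together the shares were 25.8% and 22.6%. The median log2 fold change was -0.35 in the Atf4 arm, 0.11 in the ER arm and 0.02 over all genes tested. By role, the medians were 0.01 for transcription factors, 0.02 for feedback and effector genes, -0.55 for the enzymes, -0.97 for the transporters, 0.55 for the sensors with Xbp1 and 0.38 for the degradation genes. The median of the chaperones and folding enzymes was the value of Pdia4, next to 0. The difference between the arms was not tested, because genes are not replicates and the members were chosen with earlier results of these data known.

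**Figure D3:**
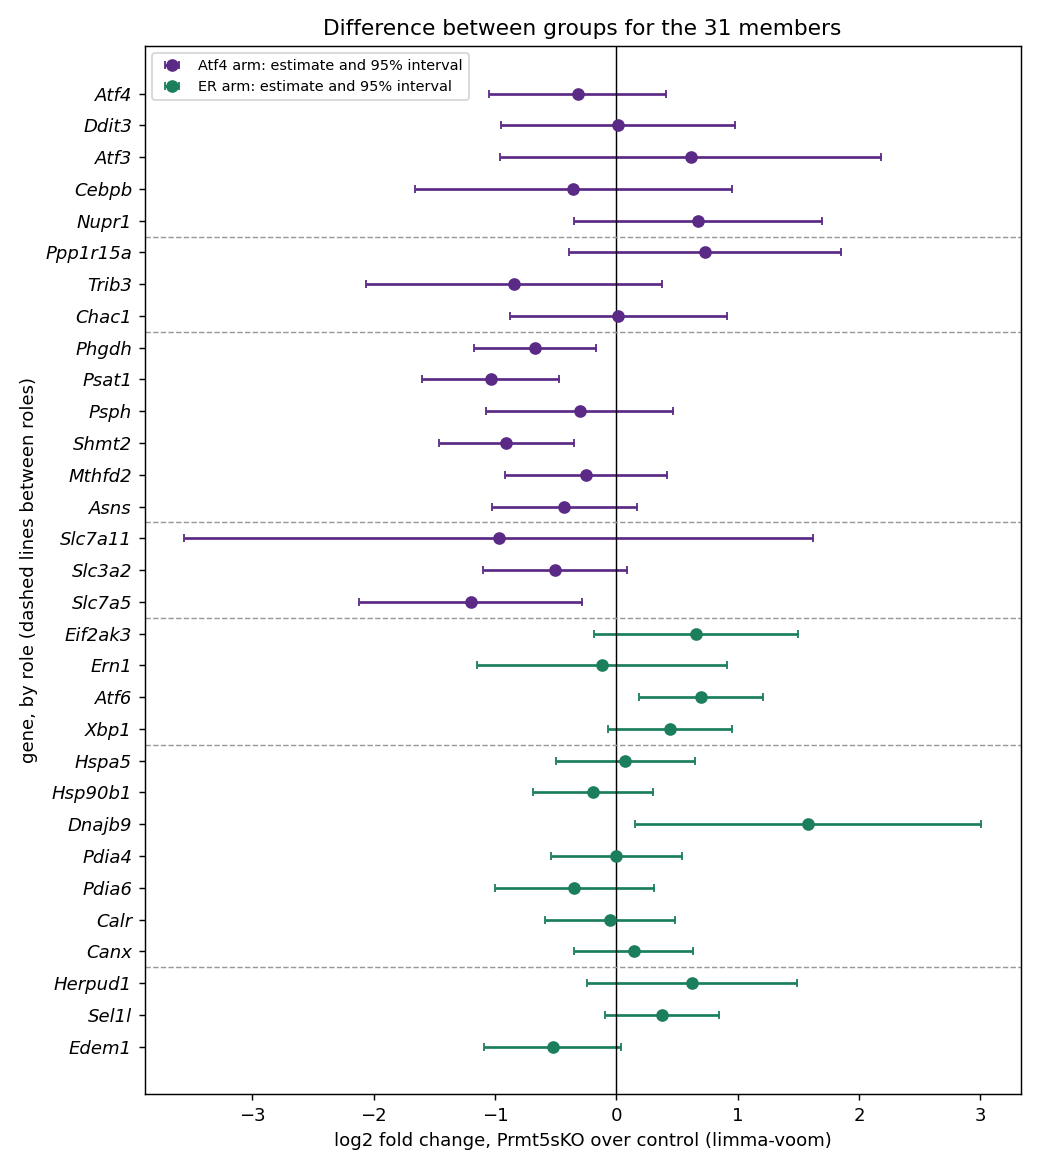
Log2 fold change, Prmt5sKO over control, with its 95% interval from limma-voom for each of the 31 members (2 libraries per group); dashed lines separate roles, purple is the Atf4 arm and green the ER arm. Intervals that leave out 0 are those of Phgdh, Psat1, Shmt2, Slc7a5, Atf6 and Dnajb9, and after adjustment over all genes tested none of these passed.

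The shallower control library was high across most of the Atf4 arm. Its level exceeded that of the deeper control for 15 of 17 Atf4-arm genes, all but Nupr1 and Ppp1r15a, with a median log2 ratio of 0.61. The ratio over all genes tested had a median of -0.02 and was positive for 48.5% of them. In the ER arm it was positive for 5 of 14 genes, with a median of -0.17. The Prmt5sKO libraries did not differ in this way: the shallower one was higher for 9 of 17 Atf4-arm genes, with a median of 0.04. For 12 of the 17 Atf4-arm genes the gap between the control libraries was larger than the difference between groups, against 4 of 14 in the ER arm. Over all genes tested this held for 7520 of 16212.

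Without the shallower control library the median of the Atf4 arm was 0.02, and without the deeper control it was -0.71. The median of -0.35 therefore rested on the shallower control. Without the shallower control, the estimates of Psph, Mthfd2 and Slc7a11 were 0.022, 0.063 and 0.054, and that of Asns was -0.15. The number of Atf4-arm genes with lower values and no overlap cannot fall when a library is left out. It was 6 of 17 with all libraries, 14 without the deeper control (36.8% of all genes), 6 without the shallower control (33.4% of all genes) and 10 without the deeper Prmt5sKO library (38.4% of all genes). As each library was left out, Phgdh, Psat1, Shmt2 and Slc7a5 had estimates from -0.53 to -0.81, -0.82 to -1.25, -0.75 to -1.07 and -0.74 to -1.66. Those of Asns and Slc3a2 ran from -0.15 to -0.71 and from -0.26 to -0.76. With both mutant libraries below both controls, a negative sign is nearly fixed in advance and adds no support.

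**Figure D4:**
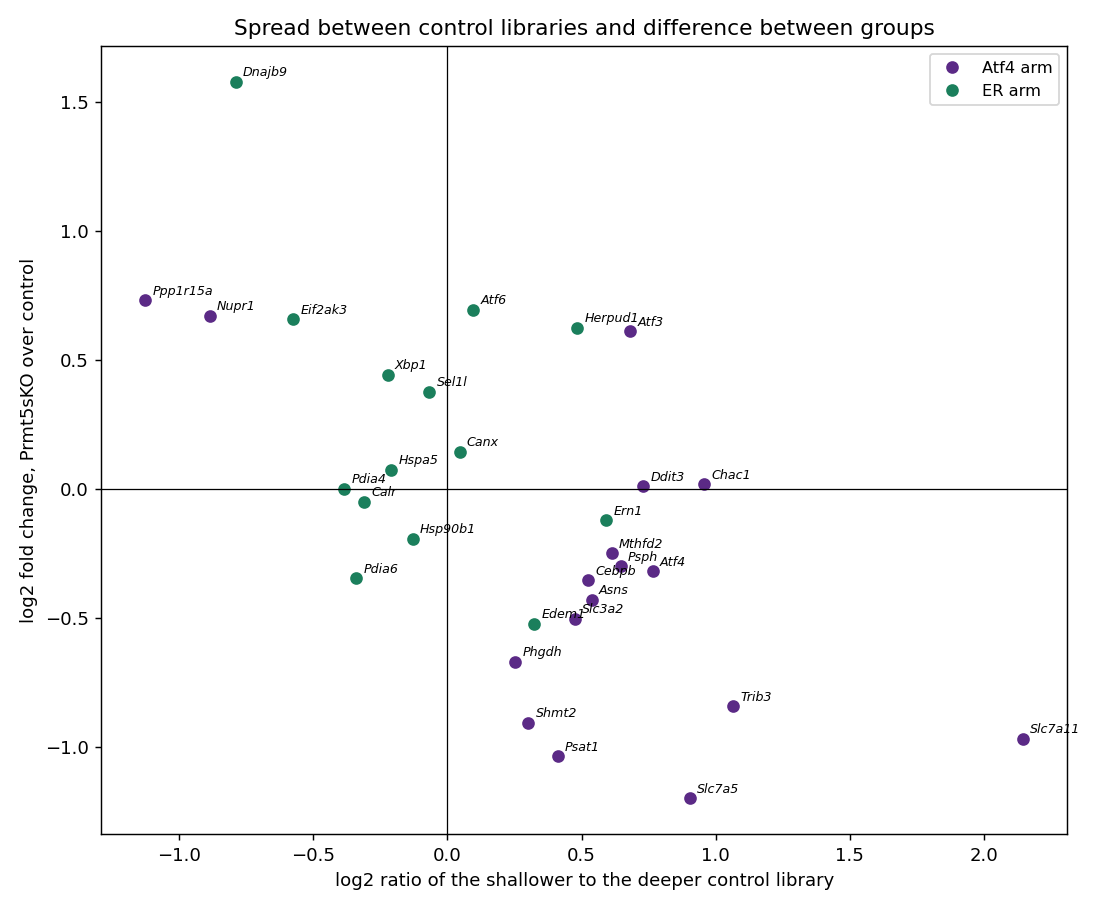
Each point is a member; the horizontal axis is the log2 ratio of the shallower to the deeper control library and the vertical axis the log2 fold change, Prmt5sKO over control, so both axes use the control libraries. Of the 17 Atf4-arm genes (purple), 15 lie right of 0, and Psat1, Shmt2 and Phgdh are lower in Prmt5sKO with a control ratio of 0.41 or less.

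The shallower Prmt5sKO library, with its high sum of differentiation markers, was also left out. Since 15 of 20 such markers lay above both controls in both Prmt5sKO libraries, the deeper one was not free of this difference. Against the controls, the deeper Prmt5sKO library alone was lower for 8 and higher for 1 of the 17 Atf4-arm genes, and higher for 8 and lower for 3 of the 14 ER-arm genes. In the same comparison 38.4% of all genes were higher and 36.6% lower. The medians were -0.39 in the Atf4 arm and 0.24 in the ER arm. The sensor genes, Ern1 included, and Xbp1 were then all higher than both controls.

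Levels can be compared roughly between genes once they are divided by exon length. The length used is that of all annotated exons together, not of the transcripts present, so the order is approximate. Per kilobase of exon, Calr had the highest control mean, 4163 normalized counts, followed by Canx with 2609, Hspa5 with 2573 and Atf4 with 2569.6. Canx, Hspa5 and Atf4 differed by less than the spread between their control libraries. Phgdh (1783), Shmt2 (1662), Psat1 (1289), Slc7a5 (1066) and Asns (1027) stood above Xbp1 (334) and the sensors Atf6 (233), Ern1 (122) and Eif2ak3 (50.1). Slc7a11 (56.9), Nupr1 (52.3) and Atf3 (11.7) were, like Eif2ak3, at the low end. In Prmt5sKO the order of the first 3 was Calr (3998), Canx (2883) and Hspa5 (2727), and Psat1 had a mean of 624.

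The rest of both pathways was read from lists of named genes. No gene of these lists was called, as for 0% of all genes tested. Both mutant libraries lay below both controls for 23.6% of all genes tested and above them for 25.2%. Of 20 cytosolic aminoacyl-tRNA synthetases, which charge tRNAs and include many Atf4 targets, 9 had both mutant libraries below both controls and 1 had them above, with a median log2 fold change of -0.17. Vars gave 7998 and 10189.5 normalized counts in the controls and 4097 and 4048 in Prmt5sKO (log2 fold change -1.15, adjusted p = 0.222). Mars gave 3124 and 3777 in the controls and 2138 and 2051 in Prmt5sKO (log2 fold change -0.71, adjusted p = 0.295). In Vars and Mars the separation between groups exceeded the spread within them.

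Of 28 other Atf4-linked genes, 11 had both mutant libraries lower and 6 higher, with a median of -0.15. These are 39.3% and 21.4%, against 23.6% and 25.2% of all genes tested. The neutral amino acid transporter Slc1a5 had the lowest estimate, with 1319.9 and 2979 normalized counts in the controls and 410.5 and 512 in Prmt5sKO (log2 fold change -2.12, SE 0.43, adjusted p = 0.231). Pck2, the mitochondrial carboxykinase, gave 1014 and 1652 in the controls and 384 and 506 in Prmt5sKO (log2 fold change -1.56). Aldh1l2, a mitochondrial folate enzyme, gave 841 and 1935 in the controls and 531 and 471 in Prmt5sKO (log2 fold change -1.34). All 3 handle amino acids or carbon units, and all 3 had the shallower control highest.

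Other genes of the same list had higher values in Prmt5sKO. Ddit4 (Redd1), an inhibitor of mTORC1, gave 427 and 207.5 normalized counts in the controls and 565 and 702 in Prmt5sKO (log2 fold change 1.05). Map1lc3b, an autophagosome protein, gave 836 and 507 in the controls and 1620.4 and 1016 in Prmt5sKO (log2 fold change 0.97). Sesn2, a leucine sensor that restrains mTORC1, gave 527 and 533 in the controls and 803 and 1212 in Prmt5sKO (log2 fold change 0.89). Their adjusted p values were 0.343, 0.347 and 0.317, so the list held genes on both sides and none that passed.

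Of the 12 eIF2 kinases, eIF2 and eIF2B subunits and the phosphatase subunit Ppp1r15b, 2 had both mutant libraries higher and 4 lower (median -0.08). Eif2s3x, the gamma subunit of eIF2, gave 1024 and 805 normalized counts in the controls and 1475 and 1300.4 in Prmt5sKO (log2 fold change 0.61, adjusted p = 0.354). Of 18 other ER chaperones and folding enzymes, 9 were lower and 3 higher (median -0.12). Of 23 other ER degradation and translocation genes, 10 were higher and 2 lower (median 0.18). Sec62, of the translocation channel, gave 1096 and 1152 in the controls and 1621 and 1557 in Prmt5sKO (log2 fold change 0.50, adjusted p = 0.370). Among 6 site proteases and ER-bound CREB factors, 1 was higher and 1 lower (median 0.14). Among these genes outside the 14 members, chaperones without overlap were more often on the lower side and degradation genes on the higher side. The shares were 50% lower and 16.7% higher for chaperones, and 8.70% lower and 43.5% higher for degradation genes. Over all genes tested they were 23.6% lower and 25.2% higher, and the contrast was not tested.

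**Figure D5:**
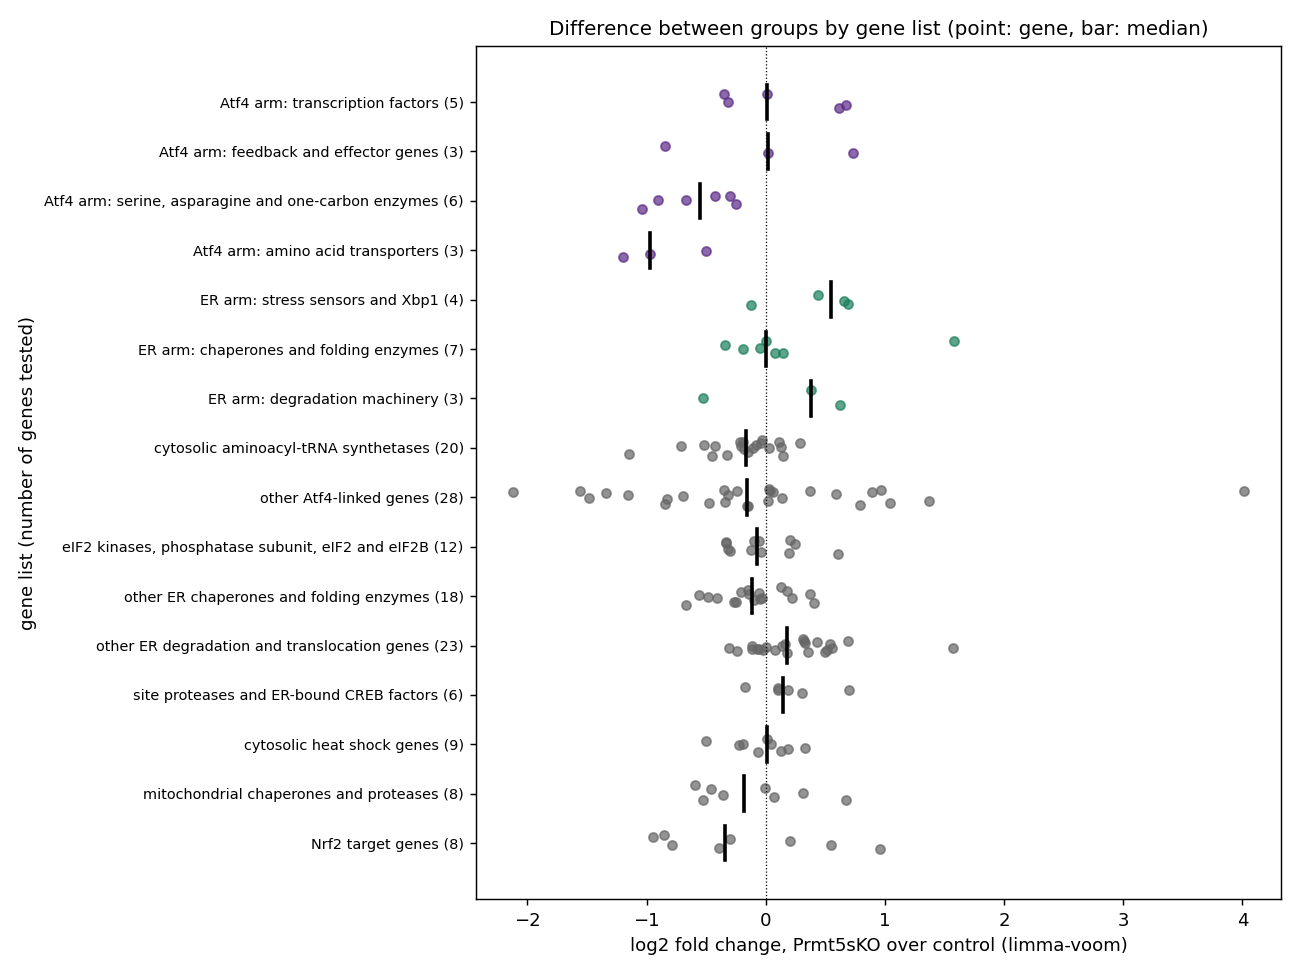
Log2 fold change, Prmt5sKO over control, of every tested gene in each list (points), with the list's median as a black bar and the number of genes in brackets; members in purple and green, other lists in grey. Medians run from -0.97 for the 3 transporters to 0.55 for the sensors with Xbp1, against 0.02 for all genes tested.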

How the data were processed

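RNA of cultured MuSC was sequenced in 2 control and 2 Prmt5sKO libraries. The authors depleted ribosomal RNA, sequenced on an Ion Torrent instrument, trimmed reads with Reaper, aligned them with STAR 2.4.0a to mm10 (GRCm38), counted them with featureCounts and compared the groups with DESeq2 1.62 (versions per the submitters' processing notes). The deposited signal values give, for each gene and group, the mean of counts that the authors had divided by size factors. The deposited log2 fold changes, standard errors and p-values hold the authors' own comparison and were not used. Reads overlapping several genes were left unassigned by the authors, and whether counting used strand is not given in the sources used here.

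Because each mean moves in steps that depend on the size factors, whole counts of single libraries could be recovered, for 20065 of 20065 genes in both groups, and the recovery and the model were checked on simulated data. The libraries of each group differed from each other by more than sampling noise. Genes with a mean of at least 5 normalized counts were tested with limma-voom (limma 3.58.1, R 4.3.3), TMM factors (own code, trimming 30% of log ratios and 5% of mean levels) and Benjamini-Hochberg adjustment over 16212 genes. Genes were called at a fold change of 2 and an adjusted p of 0.05. The ratio of libraries within a group was taken on log2 of normalized counts plus 0.5. Symbols and coordinates came from GENCODE M21 (GRCm38), which held 19782 of the 20065 identifiers. Exon lengths are the union of annotated exons.

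The members and lists were chosen with earlier results of these data known. Every member is named. From each other list up to 3 genes in each direction are named that had an unadjusted p under 0.05 and both Prmt5sKO libraries on the same side of both controls, by size of change. From each marker list the summed level and the 3 genes with the most counts are given. Alternatives were other scalings, filters and models, a replicate block, and leaving out each library.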

Additional observations from a re-analysis of the deposited data

How the results depend on the processing

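With all libraries, 0 genes were called under other scalings, filters and models and under the replicate block that paired the deeper libraries. The replicate block with crossed pairing, added after seeing the data, called 346 genes (Vars, Pck2 and Slc1a5 among them), and leaving out libraries gave 0 to 489 (489 without the deeper and 55 without the shallower Prmt5sKO library; the lone library is then assumed to vary like the other group). No member was called in any of these. The crossed block also called markers of differentiation and proliferation, among them Acta1, Ckm, Myog, Mki67 and Mcm2. Deviations correlated at -0.36 between libraries of like depth over 10305 genes. The crossed value, 0.36, is the same number with its sign turned and no separate observation. The libraries carry no replicate numbers, so the pairing is not given by the design. Leaving out libraries moved the median of the Atf4 arm from -0.71 to 0.022, that of the ER arm from 0.071 to 0.24, and the count of Atf4-arm genes lower without overlap from 6 to 14. Scaling by library size only moved the median of all genes to 0.13 and that of the ER arm to 0.21, and gave Pdia4 0.11 and Calr 0.055. Of 279 member estimates with all libraries, 10 changed sign: beside these 2, Ddit3 (-0.020 by limma-trend, -0.015 with deeper libraries paired and -0.059 crossed), Chac1 (-0.00082 by limma-trend, -0.021 and -0.060) and Pdia4 (0.00074 at a minimum mean of 20, 0.0011 with deeper libraries paired). Leaving out libraries turned 17 of 124 estimates, in 11 members: Atf4 -0.71 to 0.074, Ddit3 -0.39 to 0.36, Cebpb -0.86 to 0.28, Chac1 -0.50 to 0.48, Psph -0.65 to 0.022, Mthfd2 -0.57 to 0.063, Slc7a11 -2.58 to 0.39, Ern1 -0.71 to 0.43, Hspa5 -0.11 to 0.26, Pdia4 -0.18 to 0.18 and Calr -0.20 to 0.091. The cause was not tested. With 2 libraries per group, intervals of 1 log2 unit and more limit what could be detected for low or variable members. Abundant genes were limited too: Prmt5, with a log2 fold change of -3.52 (SE 0.27), reached an adjusted p of only 0.193 by limma-voom.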

Other observations

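Stress programmes outside both pathways were read the same way, beside 25.2% of all genes tested higher and 23.6% lower without overlap. Of 9 cytosolic heat shock genes, 1 had both Prmt5sKO libraries above both controls and 0 had them below, with a median log2 fold change of 0.01. Of 8 mitochondrial chaperones and proteases, 2 were higher and 3 lower (median -0.18). Lonp1, a matrix protease and a known Atf4 target, gave 2564 and 2604 normalized counts in the controls and 1668 and 1762 in Prmt5sKO (log2 fold change -0.59, adjusted p = 0.320 by limma-voom). Yme1l1, a protease of the inner membrane, gave 2198 and 2268 in the controls and 3816 and 3327 in Prmt5sKO (log2 fold change 0.67, adjusted p = 0.299). In both genes the control libraries differed little from each other, and neither gene passed the test.

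Of 8 targets of the oxidative stress factor Nrf2, 1 was higher and 3 were lower (median -0.34). These are 12.5% and 37.5%, against 25.2% and 23.6% of all genes tested. Txnrd1, the cytosolic thioredoxin reductase, gave 6189 and 8768 normalized counts in the controls and 4463 and 3279.6 in Prmt5sKO (log2 fold change -0.95, adjusted p = 0.292). G6pdx, which feeds NADPH from glucose, gave 2213 and 2404 in the controls and 1280.3 and 1277 in Prmt5sKO (log2 fold change -0.85, adjusted p = 0.249), and 13.6% of its exon bases are shared with another gene.

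Fgf21, a secreted hormone linked to Atf4, was chosen after its values were seen. It gave 4.52 and 3.89 normalized counts in the controls. In Prmt5sKO it gave 24.5 in the deeper library and 322 in the shallower one, which had the highest sum of differentiation markers. Its log2 fold change of 4.01 had an SE of 2.57 and an adjusted p of 0.525 (limma-voom). Without the deeper Prmt5sKO library it was called, with a log2 fold change of 6.06 and an adjusted p of 0.0186, and without any other single library it was not (adjusted p of 0.353 to 0.968).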
